A study of Mus musculus with 8 samples.

Results

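The genes described here are the amino acid transporters of the solute carrier (Slc) families 1, 3, 6, 7, 36, 38 and 43. They were taken by name, as every protein-coding mouse gene whose symbol starts with one of these family numbers. In the GENCODE M21 annotation of GRCm38, 64 genes meet that rule, and 58 of them were among the 34450 genes of the deposited table. The others were not analysed here. Of the 58, 35 had a mean of at least 0.5 FPKM (a fragment count divided by transcript length and by the depth of the library) over the 8 libraries and were tested. Of the 23 that did not, 19 had a value above 0 in at least 1 library and 4 were listed at 0 in all 8, and no value among these 23 was above 1.01 FPKM. One gene, Slc7a6os, meets the rule by its name alone, as the opposite-strand neighbour of Slc7a6, and Slc43a3 is known as a carrier of nucleobases rather than amino acids.

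The libraries were made from kidneys of C57BL/6J mice aged 8 weeks, taken at day 3 after ischemia-reperfusion injury (IRI), in which blood flow to the kidney is stopped and restored. In the group labelled HxIRI the mice had been kept in hypoxia before the injury, and in the group labelled IRI in normoxia. Each group has 4 libraries, called hypoxia libraries 1 to 4 and normoxia libraries 5 to 8 by their label numbers. All 8 kidneys were injured, no uninjured kidney enters the comparison, and the labels give neither the length and oxygen level of the hypoxia nor whether the libraries are separate mice, so a p-value covers only the spread between these libraries. RNA was poly(A)-selected from whole kidney, in which fewer cells of a type and less RNA per cell cannot be told apart. No library held more than 0.02 FPKM of Xist, or less than 0.38 FPKM of Ddx3y, a gene of the Y chromosome.

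The kidney filters free amino acids into the tubule and takes nearly all of them back in the proximal tubule. Carriers in the luminal brush border, several driven by sodium, bring amino acids into the cell, and a separate set in the basolateral membrane passes them on to the blood or, for glutamine, brings them in from it. Several of these carriers are pairs of proteins: a heavy chain (Slc3a1, also called rBAT, or Slc3a2, also called 4F2hc or CD98) takes a light chain of the Slc7 family to the membrane. Inherited defects of Slc3a1 or Slc7a9 cause cystinuria, and defects of Slc6a19 cause Hartnup disorder. Other members supply dividing or stressed cells, carry osmolytes such as taurine, or sit in the lysosome, where they pass on or report its amino acids.

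The libraries differed in ways that bear on every value below. The spacing of low FPKM values put their depth at 8470000 to 14600000 fragments. Ribosomal RNA genes held 21.55% to 67.41% of the fragments (FPKM times transcript length) of a hypoxia library and 13.55% to 72.51% of those of a normoxia library, so an FPKM value was also scaled by that share. Counted in it are genes annotated as ribosomal or mitochondrial ribosomal RNA, and the gene AY036118. Summed over the 58 members, the FPKM were 512.7, 777.5, 268.4 and 304.1 in hypoxia libraries 1 to 4 and 391.7, 239.6, 380.6 and 147.1 in normoxia libraries 5 to 8, and the groups overlapped. Set against the sum over protein-coding genes of the same library, the members held 39.45 to 56.32 FPKM per 10000 in the hypoxia libraries and 19.49 to 33.16 in the normoxia libraries, and these groups did not overlap. The median gene shifted by -0.14 on the log2 scale as deposited and by 0.03 after scaling by the trimmed mean of M-values (TMM), so values with that scaling are given beside the deposited ones for the genes below whose call it changed.

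At day 3, 2 of the 35 tested transporters were called higher in the hypoxia than in the normoxia libraries and none lower (limma on log2(FPKM + 0.5), Benjamini-Hochberg adjusted over 14444 genes, threshold 0.05). Both are light-chain genes of the Slc7 family known from the mouse proximal tubule, Slc7a12 and Slc7a13. Over all tested genes 0.305% were called higher and 0.602% lower. In 4 members, Slc3a1, Slc6a20b, Slc7a12 and Slc7a13, every hypoxia library lay above every normoxia library, against 1.86% of all tested genes. No member lay apart in the other direction, against 3.06% of all tested genes. At an unadjusted p under 0.05, 5 members were higher and 1, Slc7a5, was lower, against 2.52% and 6.84% of all genes. The log2 change was above 0 for 24 of 35 members (68.6%) and for 39% of all tested genes, and its median was 0.43 over the members and -0.14 over all genes.

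The number of calls depended on the scaling. As deposited, 44 genes were called higher and 87 lower over the whole table, and with TMM scaling 170 and 173. TMM scaling called 3 members higher, Slc3a1, Slc6a20b and Slc7a12, against 1.18% of all genes, and no member lower, against 1.2%. Quantile normalization, a common sum over protein-coding genes and removal of a length trend each called 4 members higher, against 1.94%, 0.623% and 1.43% of all genes. Normoxia library 5, which had the lowest share of ribosomal RNA, departed from normoxia libraries 6 to 8 in several members, and without it TMM scaling called 8 members higher, against 4.43% of all genes. These were Slc1a1, Slc3a1, Slc6a13, Slc6a18, Slc6a20b, Slc7a12, Slc7a13 and Slc38a3. That fit also called 1 member lower, Slc7a5, against 4.22% of all genes. Normoxia library 5 held the highest normoxia value of all of the 8 except Slc3a1 and Slc6a20b, and the lowest of Slc7a5. Leaving it out therefore moves these members towards a call, and the calls made without it are no independent support. Normoxia library 5 was the only library left out with TMM scaling, so the effect of leaving out another on that scale was not tested.

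**Figure D1:**
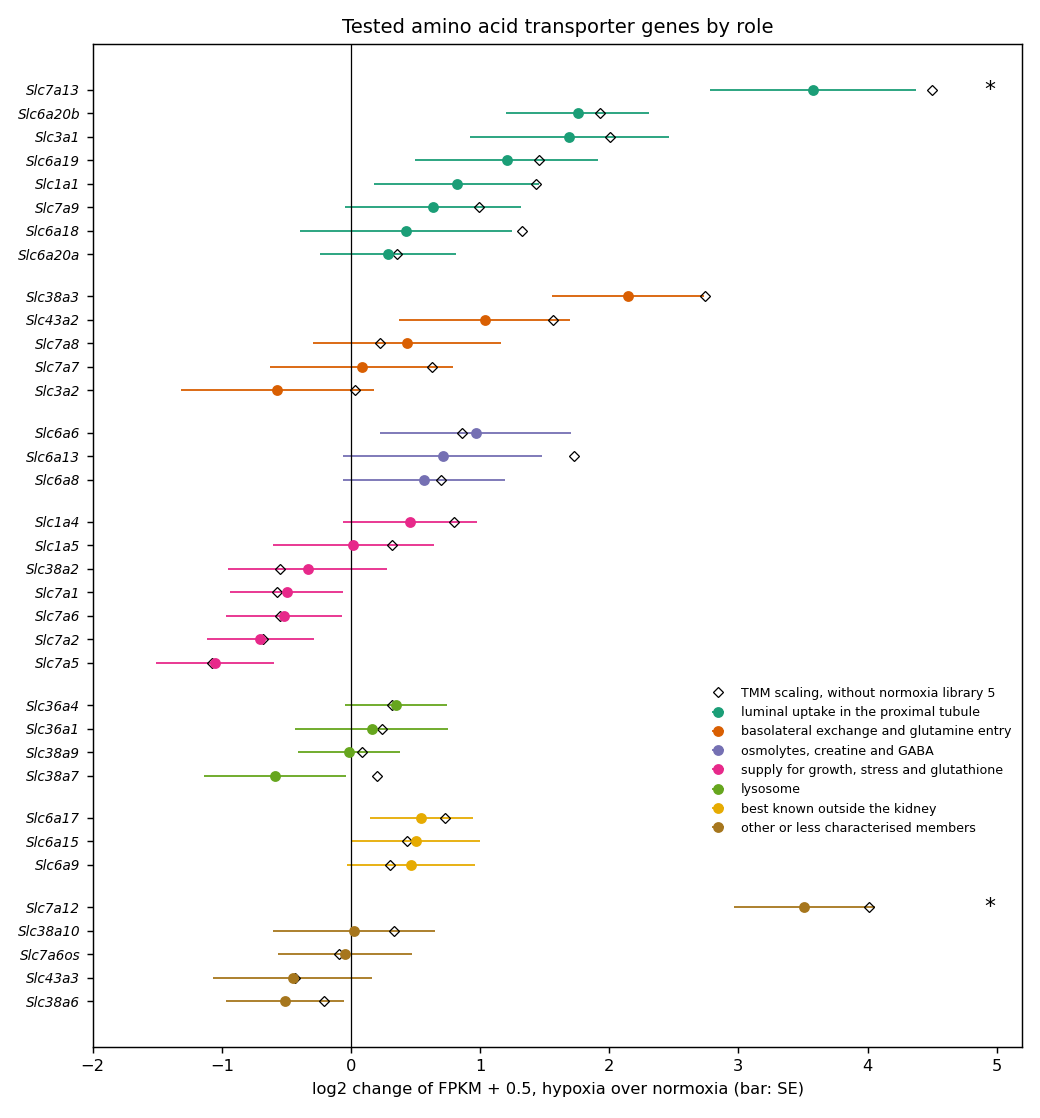
Log2 change of FPKM + 0.5 (hypoxia over normoxia, horizontal axis, with SE as the bar) for the 35 tested members, grouped by role. Filled points are the deposited values, diamonds TMM-scaled values without normoxia library 5, and stars mark the 2 members, Slc7a12 and Slc7a13, with an adjusted p under 0.05 as deposited; all 8 luminal members lie right of 0.

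All 8 tested members of the luminal uptake group had a log2 change above 0, with a median of 1.01, and 1 of them, Slc7a13, passed the test. Over all tested genes 39% had a log2 change above 0, the median was -0.14, and 0.305% were called higher. The summed level of the 9 luminal genes was 305, 427.6, 128.7 and 144.9 FPKM in hypoxia libraries 1 to 4 and 186.5, 92.7, 104.1 and 42.4 FPKM in normoxia libraries 5 to 8. Normoxia library 5 lay above hypoxia libraries 3 and 4, and the other normoxia libraries lay below all hypoxia libraries. With TMM scaling without normoxia library 5, all 8 had a positive log2 change (median 1.45) and 5 passed. In that fit 52.3% of all genes had a log2 change above 0, the median was 0.03, and 4.43% were called higher.

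Slc7a13 encodes a light chain that pairs with Slc3a1 and takes up cystine and acidic amino acids in the last segment of the proximal tubule. The gene (ENSMUSG00000041052) lies on chromosome 4 from 19818725 to 19842218 on the plus strand of GRCm38. It was at 96.18, 37.70, 22.15 and 21.78 FPKM in hypoxia libraries 1 to 4 and at 12.12, 5.91, 0.91 and 0.30 FPKM in normoxia libraries 5 to 8. The groups did not overlap, and hypoxia library 1 was the highest. The means were 44.5 ± 35.3 and 4.81 ± 5.48 FPKM (SD, n = 4 each). It was higher after hypoxia by 3.58 ± 0.80 on the log2 scale (SE, limma, adjusted p = 0.0279). Normoxia library 8 held about 5.77 fragments of it, so its value there rests on few reads. The call was lost without normoxia library 7 (log2 change 3.20, adjusted p = 0.25), with TMM scaling (3.75, adjusted p = 0.0542), without the variance trend (adjusted p = 0.0906) and over 30982 genes with no filter (adjusted p = 0.43).

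The heavy chain Slc3a1 was the most abundant member over the 8 libraries. It lies on chromosome 17 from 85028376 to 85064236 on the plus strand (ENSMUSG00000024131). Its values were 93.60, 152.89, 46.50 and 52.59 FPKM in the hypoxia libraries and 24.22, 33.72, 30.61 and 12.10 FPKM in the normoxia libraries. The lowest hypoxia library lay above the highest normoxia library, yet the spread within the hypoxia group was large. The log2 change was 1.69 ± 0.77 (SE), which did not pass as deposited (limma, adjusted p = 0.481) and passed with TMM scaling (1.91, adjusted p = 0.04). On the opposite strand, 601 bases of its exons, 26.5% of their length, overlap exons of Prepl, whose log2 change was 0.47 (adjusted p = 0.966). Whether the authors counted by strand is not given in the sources used here.

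Slc7a9 is the light chain that forms the main luminal cystine and dibasic amino acid carrier with Slc3a1. It was at 12.02, 35.73, 11.17 and 8.42 FPKM in the hypoxia libraries and at 10.31, 9.36, 15.72 and 4.22 FPKM in the normoxia libraries. The groups overlapped, hypoxia library 2 was the highest, and the log2 change of 0.63 ± 0.68 (SE) did not pass (adjusted p = 0.944). Within each library, Slc7a9 was lower relative to Slc3a1 in all 4 hypoxia libraries than in any normoxia library. The log2 ratio of Slc7a9 to Slc3a1 averaged -2.39 ± 0.43 after hypoxia and -1.34 ± 0.36 after normoxia (SD, n = 4 each; exact permutation test, two-sided p = 0.0286, the smallest that 4 against 4 allows, and adjusted p = 0.129 over 9 ratios). The ratio of Slc7a9 to Slc7a13 differed by -2.95 on the log2 scale (exact permutation test, p = 0.0571, adjusted p = 0.129). Slc7a13 made up 88.9%, 51.3%, 66.5% and 72.1% of the summed FPKM of both light chains in the hypoxia libraries and 54%, 38.7%, 5.47% and 6.64% in the normoxia libraries. Normoxia library 5 lay above hypoxia library 2 by this share, and normoxia libraries 7 and 8 were far below the rest. None of the 9 ratios passed after adjustment, which the smallest p allows only if most of the 9 reach it together.

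**Figure D2:**
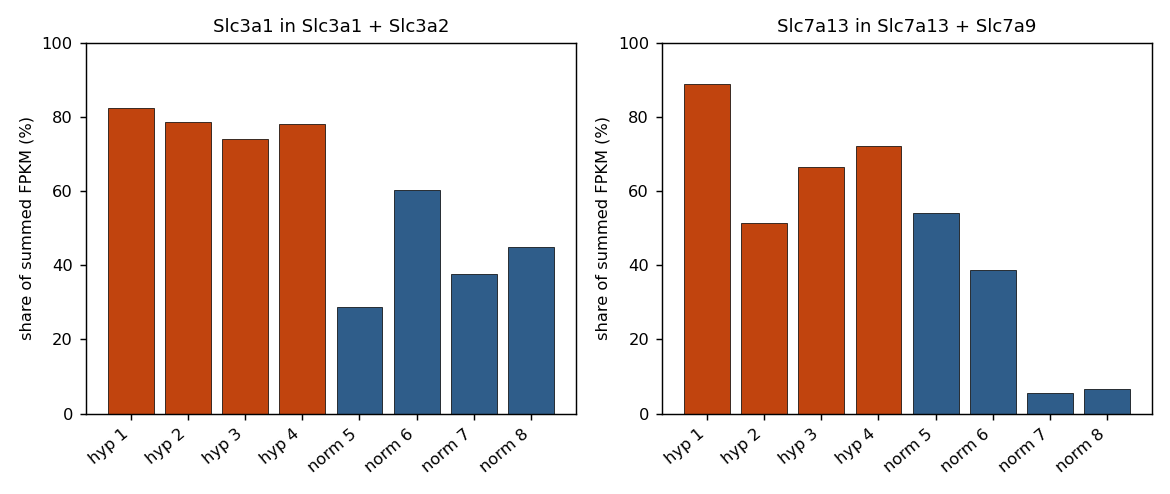
Share (percent of summed FPKM) of Slc3a1 in both heavy chains, left, and of Slc7a13 in both luminal light chains, right, 1 bar per library (orange hypoxia, blue normoxia). Slc3a1 made up 74% to 82.5% in the hypoxia libraries and 28.8% to 60.4% in the normoxia libraries, without overlap, while the shares of Slc7a13 overlapped.

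The 250 bases before the RefSeq start sites of Slc3a1, Slc7a9 and Slc6a20b are shown because the first pair form one carrier but had unlike ratios, and because Slc6a20b, like Slc3a1, lay higher in every hypoxia library. Of the 58 members, 41 matched an entry of the RefSeq promoter table (GRCm38.p6), and of the 35 tested, 24 did. The sequences run 5′ to 3′ on the gene's strand, and capitals mark the matches to the motifs named after them. Those of Slc3a1 (chr17:85028097-85028346, plus strand), Slc7a9 (chr7:35448842-35449091, plus strand) and Slc6a20b (chr9:123632539-123632788, minus strand) read:
Slc3a1: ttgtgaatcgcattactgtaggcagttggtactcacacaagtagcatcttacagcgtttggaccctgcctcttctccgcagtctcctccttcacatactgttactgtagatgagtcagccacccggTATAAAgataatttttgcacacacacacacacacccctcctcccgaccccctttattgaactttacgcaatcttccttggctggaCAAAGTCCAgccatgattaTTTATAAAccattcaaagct
Slc7a9: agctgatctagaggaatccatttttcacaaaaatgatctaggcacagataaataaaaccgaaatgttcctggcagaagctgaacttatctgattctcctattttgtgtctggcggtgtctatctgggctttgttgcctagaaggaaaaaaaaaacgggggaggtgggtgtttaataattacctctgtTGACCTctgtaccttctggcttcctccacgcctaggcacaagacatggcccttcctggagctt
Slc6a20b: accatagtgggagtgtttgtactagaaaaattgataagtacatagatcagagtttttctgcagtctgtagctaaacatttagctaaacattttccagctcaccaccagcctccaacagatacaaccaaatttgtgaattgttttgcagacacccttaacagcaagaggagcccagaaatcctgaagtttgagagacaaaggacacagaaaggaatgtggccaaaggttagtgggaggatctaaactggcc
Each window was searched on both strands for GTTAAT (an HNF1 half-site), CAAAGTCCA (an HNF4 site), TGATGNAA (the core of an amino acid response element), ACGTG (the core of a hypoxia response element), AGGTCA (a nuclear receptor half-site) and TATAAA (the core promoter box). These letters occur in 6.43%, 0.384%, 3.45%, 16.6%, 14% and 12.4% of 32851 promoter windows of that length. The Slc3a1 window holds CAAAGTCCA beginning 39 bases before the start site. It also holds TATAAA at 124 and at 18 bases before it on the gene's strand and, overlapping the latter, on the other strand at 20 bases. The Slc7a9 window shown holds 1 match, AGGTCA on the other strand at 63 bases, and the Slc6a20b window holds none of the 6. The Slc7a9 window precedes this RefSeq start site but lies inside the gene as annotated in GENCODE M21, which begins at 35448796. For another RefSeq start site of Slc7a9, whose window is not shown, the same match lies at 150 bases. A match is a run of letters and no measurement of binding.

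The neutral amino acid carriers of the brush border gave a mixed picture. Slc6a20b, a carrier of the family that takes up proline and related imino acids, lies on chromosome 9 from 123590800 to 123632565 on the minus strand (ENSMUSG00000025243). It was at 9.23, 12.36, 6.68 and 6.76 FPKM in the hypoxia libraries and at 1.63, 3.77, 3.09 and 1.04 FPKM in the normoxia libraries. The groups did not overlap, and the log2 change of 1.75 ± 0.55 (SE) did not pass as deposited (limma, adjusted p = 0.155) but did with TMM scaling (1.96, adjusted p = 0.0216). On the opposite strand, 1800 bases, 21.1% of its exons, overlap Sacm1l, which was at a mean of 8.85 FPKM with a log2 change of -0.74 (adjusted p = 0.876). Its near copy Slc6a20a was at 3.68, 6.00, 1.10 and 1.63 FPKM after hypoxia and 1.31, 2.02, 3.99 and 1.55 FPKM after normoxia, with a log2 change of 0.29 ± 0.53 (SE, adjusted p = 0.999). The groups overlapped for Slc6a20a, and it shares 15.3% of its 50-base windows with Slc6a20b, so fragments from that stretch cannot be assigned to either gene.

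Slc6a19 is the main sodium-driven carrier of neutral amino acids in the brush border. It was at 12.77, 64.56, 14.21 and 13.18 FPKM in the hypoxia libraries and 7.58, 10.43, 14.25 and 4.21 FPKM in the normoxia libraries. Hypoxia library 2 was far above the rest, normoxia library 7 reached the level of the other hypoxia libraries, and the log2 change of 1.21 ± 0.71 (SE) did not pass (adjusted p = 0.699). Slc6a18, a related carrier of the later proximal tubule, was at 61.21, 102.29, 19.53 and 32.49 FPKM and at 116.98, 20.98, 29.39 and 16.59 FPKM. Its highest value was that of normoxia library 5, the groups overlapped, and the log2 change was 0.43 ± 0.82 (SE, adjusted p = 0.999). With TMM scaling without normoxia library 5 it was 1.32 (adjusted p = 0.0453).

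Slc1a1 is the luminal carrier of glutamate and aspartate. It was at 16.18, 15.95, 6.37 and 7.95 FPKM after hypoxia and at 12.17, 6.48, 5.96 and 2.39 FPKM after normoxia. The groups overlapped through normoxia libraries 5 and 6, and the log2 change of 0.82 ± 0.64 (SE) did not pass (adjusted p = 0.864). With TMM scaling without normoxia library 5 it was 1.43 (adjusted p = 0.0219). Slc36a2, a proton-coupled carrier of proline and glycine, was not tested, with 0.14, 0.12, 1.01 and 0.12 FPKM after hypoxia and 0.19, 0.03, 0.16 and 0 FPKM after normoxia.

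**Figure D3:**
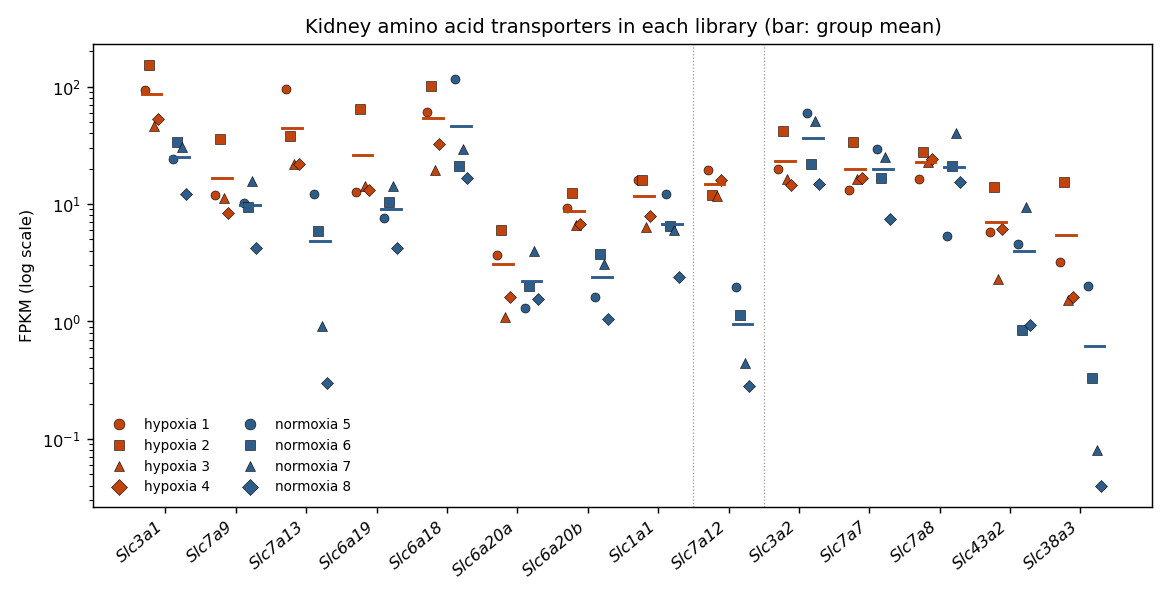
FPKM (log axis) of 14 members in each library, with the mean of each group of 4 as a bar: luminal genes left of the first dotted line, Slc7a12 between the lines and basolateral genes on the right. Slc3a1, Slc7a13, Slc6a20b and Slc7a12 have all hypoxia points (orange) above all normoxia points (blue), and in the other genes the groups overlap.

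Slc7a12 gave the smallest p of the 35 members. It encodes a light-chain-like carrier of small neutral amino acids, for which neither Slc3a1 nor Slc3a2 is the known partner, and lies on chromosome 3 from 14480697 to 14505830 on the plus strand (ENSMUSG00000039710). It was at 19.65, 11.85, 11.78 and 15.88 FPKM in the hypoxia libraries and at 1.98, 1.13, 0.44 and 0.28 FPKM in the normoxia libraries. The lowest hypoxia library held several times the FPKM of the highest normoxia library. The means were 14.8 ± 3.76 and 0.958 ± 0.775 FPKM (SD, n = 4 each). It was higher after hypoxia by 3.51 ± 0.55 on the log2 scale (SE, limma, adjusted p = 0.00289). These values stand for about 174 to 405 fragments in a hypoxia library and 4.38 to 46.6 in a normoxia library. It passed with TMM scaling (3.65, adjusted p = 0.0139), without normoxia library 5 as well (4.01, adjusted p = 0.00302), and without any single library (adjusted p from 0.000254 to 0.0346), and did not pass over 30982 genes with no filter (adjusted p = 0.155). Slc7a12 and Slc7a13 together made up 6.37% to 22.6% of the members' summed FPKM in the hypoxia libraries and 0.355% to 3.6% in the normoxia libraries.

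The basolateral members did not move as one, and none of the 5 passed as deposited. A log2 change above 0 was found for 4 of them, and the median was 0.43. Slc38a3, which brings glutamine into the proximal tubule cell for ammonia production, had the largest of these changes. It was at 3.18, 15.41, 1.51 and 1.63 FPKM in the hypoxia libraries and at 2.02, 0.33, 0.08 and 0.04 FPKM in the normoxia libraries. Normoxia library 5 lay above hypoxia libraries 3 and 4, and the other normoxia libraries lay below all hypoxia libraries. The log2 change was 2.14 ± 0.59 (SE, limma, adjusted p = 0.0812), and normoxia library 8 held about 1.9 fragments of it. It passed without hypoxia library 1, 3 or 4 or normoxia library 6 (2.18, 2.47, 2.44 and 2.11, adjusted p = 0.0405, 0.0135, 0.00839 and 0.0396). It also passed with a common protein-coding sum (2.36, adjusted p = 0.0392) and with TMM scaling without normoxia library 5 (2.74, adjusted p = 0.0182). It did not pass with TMM scaling of all 8 libraries (2.20, adjusted p = 0.0998) or, as deposited, without hypoxia library 2 (1.48, adjusted p = 0.23). Nor did it pass as deposited without normoxia library 5, 7 or 8 (2.64, 1.93 and 1.90, adjusted p = 0.0772, 0.454 and 0.0889).

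Slc3a2, the heavy chain of the basolateral exchangers, was the most abundant gene of that group. It was at 19.92, 41.65, 16.33 and 14.66 FPKM after hypoxia and at 59.93, 22.13, 50.53 and 14.79 FPKM after normoxia, and the groups overlapped. Its log2 change was -0.57 ± 0.75 (SE, adjusted p = 0.979) as deposited and 0.03 with TMM scaling without normoxia library 5, so its direction was not fixed. Against Slc3a1 in the same library the picture was clearer: Slc3a1 made up 82.5%, 78.6%, 74% and 78.2% of the summed FPKM of both heavy chains after hypoxia and 28.8%, 60.4%, 37.7% and 45% after normoxia. Slc3a1 was the larger heavy chain in all hypoxia libraries and in 1 normoxia library, number 6. The log2 ratio of Slc3a1 to Slc3a2 was 1.84 ± 0.30 after hypoxia and -0.42 ± 0.80 after normoxia (SD, n = 4 each), a difference of 2.26 (exact permutation test, two-sided p = 0.0286, adjusted p = 0.129). Slc3a2 is made by many cell types, and the part of each in its level was not tested.

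For the light chains that pair with Slc3a2 in the basolateral membrane, the difference between groups was smaller than the spread within them. Slc7a7, which exports dibasic amino acids, averaged 19.9 ± 9.18 FPKM in the hypoxia and 19.8 ± 9.82 FPKM in the normoxia libraries (SD, n = 4 each), with a log2 change of 0.08 ± 0.71 (SE, adjusted p = 0.999). Slc7a8, an exchanger of neutral amino acids, averaged 22.7 ± 4.64 and 20.5 ± 14.7 FPKM and had a log2 change of 0.43 ± 0.73 (SE, adjusted p = 0.999). It spread widely after normoxia, from 5.36 FPKM in library 5 to 40.28 FPKM in library 7. The log2 ratio of Slc7a7 to Slc3a2 differed by 0.65 (exact permutation test, p = 0.0571, adjusted p = 0.129) and that of Slc7a8 to Slc3a2 by 1 (exact permutation test, p = 0.314, adjusted p = 0.471). Slc43a2, a basolateral exit route for neutral amino acids, was at 5.80, 14, 2.31 and 6.18 FPKM after hypoxia and 4.55, 0.85, 9.47 and 0.93 FPKM after normoxia. Its groups overlapped, and the log2 change was 1.03 ± 0.66 (SE, adjusted p = 0.759).

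Among the carriers of osmolytes, creatine and GABA, all 3 tested genes had a positive log2 change, with a median of 0.71, and none passed. Slc6a6, the taurine carrier, was at 30.76, 72.58, 25.60 and 25.85 FPKM after hypoxia and 7.38, 25.23, 28.87 and 17.66 FPKM after normoxia (log2 change 0.97 ± 0.74, SE, adjusted p = 0.854). Only normoxia library 7 reached into the range of the hypoxia libraries. Slc6a8, the creatine carrier, averaged 12.02 ± 3.59 and 8.19 ± 3.91 FPKM (SD, n = 4 each), and its log2 change was 0.57 ± 0.63 (SE, adjusted p = 0.95). Slc6a13, a proximal tubular carrier of GABA and taurine, was at 25.29, 31.88, 8.09 and 8.49 FPKM and at 43.56, 6.57, 7.82 and 2.96 FPKM. Normoxia library 5 held its highest value and the other normoxia libraries lay below all hypoxia libraries. Its log2 change was 0.71 ± 0.77 (SE, adjusted p = 0.945), and with TMM scaling without that library 1.72 (adjusted p = 0.0182). The betaine carrier Slc6a12 was not tested, with 0.13 to 0.67 FPKM after hypoxia, 0.45 FPKM in normoxia library 5 and 0 in the other normoxia libraries.

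The carriers that supply growing and stressed cells had mostly negative log2 changes. Of 13 such genes 7 were tested, and none passed as deposited. A log2 change above 0 was found for 2 of the 7, and for 39% of all tested genes. The median was -0.50, against -0.14 over all tested genes, most of which were also negative. Slc7a5, the exchanger of large neutral amino acids of dividing cells, was at 0.83, 0.56, 0.28 and 0.42 FPKM after hypoxia and at 0.77, 1.06, 4.66 and 1.34 FPKM after normoxia. Normoxia library 7 held by far the most, and normoxia library 5 lay just below hypoxia library 1. The log2 change was -1.05 ± 0.46 (SE, limma, adjusted p = 0.426), and -1.08 with TMM scaling without normoxia library 5 (adjusted p = 0.0388).

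Slc7a1, a carrier of arginine and lysine, was at 1.17, 0.78, 0.62 and 0.80 FPKM after hypoxia and 0.49, 1.44, 2.73 and 1.49 FPKM after normoxia (log2 change -0.50 ± 0.44, SE, adjusted p = 0.899). Normoxia library 5 was the lowest of all 8 and the other normoxia libraries lay above every hypoxia library. Slc38a2, a sodium-coupled carrier that cells raise when amino acids run short, was at 5.44, 7.61, 3.16 and 2.71 FPKM and at 1.75, 6.55, 12.95 and 6.25 FPKM (-0.34 ± 0.61, SE, adjusted p = 0.999). Again normoxia library 5 was the lowest and normoxia library 7 the highest, and without the latter the log2 change was 0.04. The glutamine carrier Slc1a5 averaged 6.59 ± 4.35 and 6.20 ± 4.02 FPKM (SD, n = 4 each) and its relative Slc1a4 2.96 ± 2.03 and 1.78 ± 0.72 FPKM, with log2 changes of 0.02 and 0.46. Slc7a11, the cystine carrier that feeds glutathione synthesis, was not tested, with 0 to 0.03 FPKM after hypoxia and 0.02 to 0.20 FPKM after normoxia. Slc38a1 was not tested either, with 0.21 to 0.33 and 0.09 to 0.76 FPKM.

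None of the 4 tested lysosomal members passed, and their median log2 change was 0.07. Slc36a1, which carries amino acids out of the lysosome with protons, averaged 6.11 ± 2.84 and 5.44 ± 3.19 FPKM (SD, n = 4 each), and its log2 change was 0.16 ± 0.59 (SE, adjusted p = 0.999). Slc38a9, the arginine sensor that reports to mTORC1, averaged 0.70 ± 0.29 and 0.71 ± 0.28 FPKM, and its log2 change was -0.02 ± 0.39 (SE) as deposited and 0.11 with TMM scaling. Slc38a7, which exports glutamine from the lysosome, was at 1.90, 3.30, 1.37 and 1.38 FPKM after hypoxia and 11.06, 2.10, 2.30 and 1.46 FPKM after normoxia. Its log2 change of -0.59 ± 0.55 (SE, adjusted p = 0.911) rested on normoxia library 5 and was 0.20 with TMM scaling without that library.

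Members best known outside the kidney were mostly near 0. Of 15 such genes with values, 3 were tested, and none passed. Slc6a15, known as a neutral amino acid carrier of neurons, averaged 2.16 ± 1.53 and 1.26 ± 0.81 FPKM, and the glycine carrier Slc6a9 averaged 1.80 ± 1.56 and 1.08 ± 0.74 FPKM (SD, n = 4 each). Their log2 changes were 0.50 ± 0.50 and 0.46 ± 0.50 (SE, adjusted p = 0.924 and 0.943). Of the Slc6a9 exons, 1429 bases, 27.8%, overlap the opposite-strand gene Ccdc24. Among the less characterised members other than Slc7a12, Slc38a10 was the most abundant, with 9.48 ± 4.20 and 9.34 ± 4.13 FPKM (log2 change 0.02 ± 0.63, SE, adjusted p = 0.999).

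**Figure D4:**
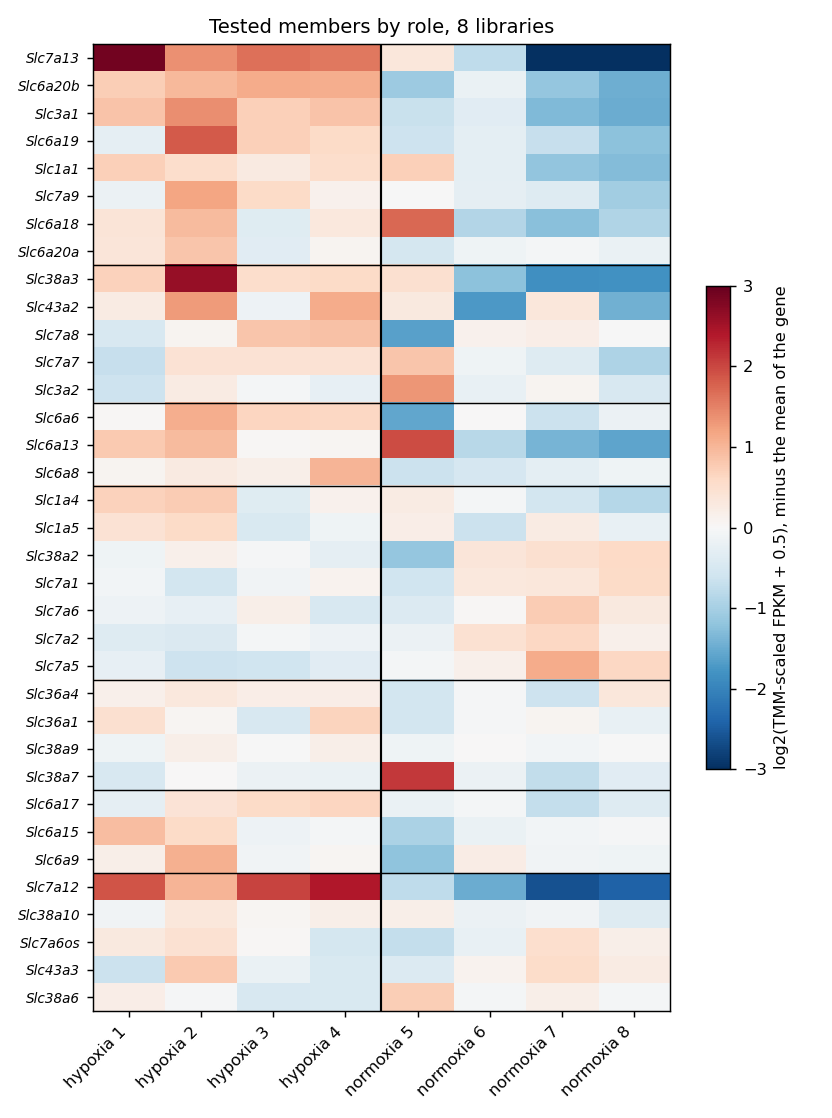
Each tested member (rows, by role) in each library (columns) as log2(TMM-scaled FPKM + 0.5) minus the mean of that gene, red above and blue below it; the colour scale is clipped at 3 either way. Normoxia library 5 departs from normoxia libraries 6 to 8 in Slc6a18, Slc6a13 and Slc38a7, which are high there, and in Slc6a6, Slc7a8 and Slc38a2, which are low.

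With TMM scaling, some members lay apart by group and others did not. Normoxia library 5 still held the highest Slc6a18 and Slc6a13 of all 8 libraries, at 128 and 47.65 scaled FPKM. Slc3a1 was at 77.56, 112.2, 70.73 and 77.65 scaled FPKM in the hypoxia libraries and 26.49, 33.59, 16.65 and 14.95 in the normoxia libraries, and the spread within the hypoxia group was smaller than in the deposited values. Slc7a5 was at 0.69, 0.41, 0.43 and 0.62 scaled FPKM after hypoxia and at 0.84, 1.06, 2.54 and 1.66 after normoxia, without overlap. On this scale 8 members (22.9%) lay apart and higher after hypoxia, against 7.22% of all genes. In the other direction 1 member (2.86%), Slc7a5, lay apart and lower, against 5.64%. Without normoxia library 5, 12 members (34.3%) lay apart and higher, against 12.7% of all genes. Those apart and lower were 4 (11.4%), Slc7a1, Slc7a2, Slc7a5 and Slc38a2, against 11.1%, a share so close that nothing is read from it.

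Other genes of amino acid handling were read from lists of related genes. In the list of amino acid and peptide transport outside these families, none of 9 tested genes passed, and the median log2 change was 0.19. Slc15a3, a peptide carrier of the lysosome in immune cells, had the smallest p there, at 0.11 to 0.55 FPKM after hypoxia and 0.73 to 3.28 FPKM after normoxia (log2 change -1.55 ± 0.43, SE, adjusted p = 0.0827, and adjusted p = 0.0397 with TMM scaling). In the list of the ATF4 response to amino acid shortage, 1 of 16 tested genes passed. This was Phgdh, the first enzyme of serine synthesis, which was at 3.85, 3.11, 1.08 and 0.69 FPKM after hypoxia and 30.60, 5.78, 48.74 and 10.53 FPKM after normoxia. All hypoxia libraries lay below all normoxia libraries, and it was lower after hypoxia by 2.95 ± 0.68 on the log2 scale (SE, limma, adjusted p = 0.0327). Cth, an enzyme of cysteine synthesis named here after its values were seen, was at 23.12, 23.80, 7.32 and 8.34 FPKM after hypoxia and 1.31, 6.01, 5.73 and 1.52 FPKM after normoxia. Every hypoxia library lay above every normoxia library, and its log2 change of 2.02 ± 0.65 (SE) did not pass as deposited (limma, adjusted p = 0.165) but did with TMM scaling (2.23, adjusted p = 0.03). The median of that list was -0.34, and none of 21 tested genes of amino acid sensing upstream of mTORC1 passed (median -0.03).

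Markers of kidney and immune cells were read beside the members, and as deposited Calb1, Krt20 and Sox9 passed. The 12 proximal tubule markers, all detected in every library, summed to 655.3 to 1328 FPKM after hypoxia and 206.6 to 938.5 FPKM after normoxia, and 11 of them had a log2 change above 0 (median 0.86), although none passed. The 5 injured tubule markers summed to 7.4 to 126.4 and 226.6 to 608.4 FPKM (median -2.97), and Krt20 and Sox9 passed (log2 changes -3.10 and -2.14, adjusted p = 0.0385 and 0.0221). The 8 macrophage and monocyte markers summed to 16.35 to 64.46 and 65.88 to 719.3 FPKM (median -1.77), and none passed as deposited, while Adgre1 and Cd68 did with TMM scaling (-1.40 and -2.39, adjusted p = 0.0423 and 0.0243). All 4 markers of the thick ascending limb had a log2 change above 0 (median 1.19, sums 357.3 to 1620 after hypoxia and 148 to 551.1 FPKM after normoxia). So did 5 of 6 collecting duct markers (median 0.84, sums 61.15 to 232.4 and 17.14 to 109.1 FPKM) and all 5 red blood cell markers (median 2.12, sums 198.9 to 534.1 and 10.31 to 548.7 FPKM). Of the 4 fibroblast and pericyte markers 1 had a log2 change above 0 (median -1.49, sums 15.79 to 33.79 and 45.34 to 195.1 FPKM). None of these 4 lists had a marker that passed as deposited, while with TMM scaling 2, 1 and 2 passed higher in the first 3 and 2 passed lower in the last. The 3 neutrophil markers tested (median -1.77, sums 0.06 to 3.18 and 2.58 to 68.62 FPKM), the 4 of podocytes (median 0.23) and the 4 of the endothelium (median 0.30) had none that passed under either scaling. Of the 4 distal markers, 3 had a log2 change above 0 (median 0.88, sums 46.48 to 90.56 and 14.56 to 35.92 FPKM). Among them only Calb1 passed (3.10, adjusted p = 0.0198), and Trpv5 was at -0.03. The 4 T and B cell markers, each at 0 in some libraries, summed to at most 0.41 and 1.74 FPKM. The part of these marker differences in the transporter values was not tested.

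Relative to the proximal tubule markers of the same library, some members kept a difference and some did not. Each member's log2(FPKM + 0.5) was set against the mean of the 12 markers, a reference chosen after seeing the data, and described with no test. Slc7a12 (2.57 on the log2 scale), Slc7a13 (2.64) and Slc6a20b (0.81) were still higher in every hypoxia library than in any normoxia library. Slc3a1 differed by 0.75 with overlap, while Slc7a9 (-0.31), Slc6a18 (-0.52), Slc1a1 (-0.13) and Slc6a19 (0.26) differed by less than 1 SD of a group. Of all tested genes, 0.381% were higher in this way, beside the 3 members. The median difference on this reference was -1.08 over all tested genes and -0.52 over the 35 members tested. In every hypoxia library 6 members lay below every normoxia library, among them Slc3a2 (-1.51) and Slc7a5 (-2), while 23.4% of all tested genes did so, and nothing is read from that count.

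**Figure D5:**
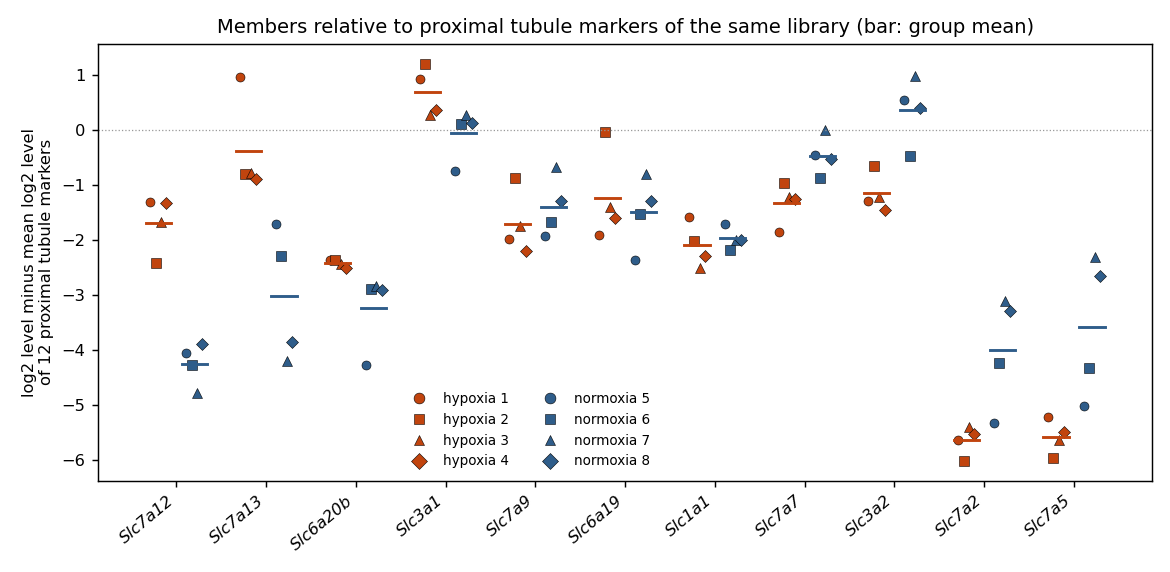
Log2 level of 11 members minus the mean log2 level of 12 proximal tubule markers in the same library (vertical axis), 1 point per library, with group means as bars. Slc7a12, Slc7a13 and Slc6a20b lie higher in all hypoxia libraries (orange) than in any normoxia library (blue), and Slc7a7, Slc3a2, Slc7a2 and Slc7a5 lie lower.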

How the data were processed

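The labels describe poly(A) RNA sequencing (a stranded TruSeq preparation) of whole kidney, 4 libraries per group. The authors deposited 1 table of FPKM per gene, per the file headers, with no counts. The submitters' processing notes name HISAT2, StringTie and edgeR. Not given in the sources used here are their versions and settings, the genome build, the annotation and the use of strand in counting. All 34450 Ensembl gene IDs matched GENCODE M21 on GRCm38, which gave symbols, types and coordinates.

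Values were transformed as log2(FPKM + 0.5), which understates the change of low genes. The 14444 genes with a mean of at least 0.5 FPKM were fitted with limma 3.58.1 (R 4.3.3, lmFit and eBayes with trend), two-sided, with Benjamini-Hochberg adjustment over all of them and a threshold of 0.05. The fit was tested on simulated data. Ratios of 9 pairs of members were compared by exact permutation over 70 arrangements. Depth was estimated from the spacing of low FPKM values, in single-exon genes of 600 to 3000 bases, and covers counting error only. The TMM factors were computed from FPKM, trimming 30% of ratios and 5% of levels. Alternatives were other pseudocounts, filters, scalings and variance models, removal of a length trend, and leaving out each library from the deposited values. With TMM scaling only normoxia library 5 was left out.

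Members, roles and gene lists were chosen with earlier results of these data known. Named with values are members with an adjusted p under 0.05, members fixed by name, and the 2 most abundant of each role, and, outside the families, genes that passed or had the smallest p of a list. Some choices were made after results were seen. Genes for the scaled fits were filtered on deposited instead of scaled values, the promoter windows were cut to the 250 bases before the start site, and the proximal marker reference was added.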

Additional observations from a re-analysis of the deposited data

Results flagged for a closer look

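Slc6a19, the main carrier of neutral amino acids in the brush border, was at 64.56 FPKM in hypoxia library 2, far from the other hypoxia libraries at 12.77 to 14.21 FPKM. The gap to the nearest of them was 0.935 of the whole range, above Dixon's critical value for 4 values. It was the only one of 56 groups of 4 (28 named members in both groups) that stood out on that scale. Chance alone flags about 1 in 20 groups. On plain FPKM, where high values weigh more, other groups can stand out too, such as Slc38a7 with 11.06 FPKM in normoxia library 5.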

How the results depend on the processing

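Over all tested genes 44 were called higher and 87 lower. The numbers were 170 and 173 with TMM scaling, 280 and 349 with quantile normalization, 90 and 141 with a common protein-coding sum, 207 and 257 with the length trend removed, 17 and 8 without the variance trend, 0 and 0 with no filter, and 638 and 608 with TMM scaling without normoxia library 5; with a pseudocount of 1, 47 were lower. Leaving out single libraries gave 11 to 67 higher and 4 to 237 lower, the lowest of both without normoxia library 7. Members called higher, 2 as deposited, numbered 4 with quantile normalization, with the protein-coding sum and with the length trend removed, 1 without the variance trend, 0 with no filter (6 at an unadjusted p under 0.05), 1 to 3 without single libraries, and 8 with TMM scaling without normoxia library 5, which called 1 lower. Other amino acid genes, 0 higher and 1 lower, numbered 1 and 2 with TMM scaling, 3 and 2 with library 5 also left out, and 0 to 2 lower without single libraries. Markers, 1 higher and 2 lower, numbered 6 and 6, then 16 and 12, and 0 to 2 higher and 0 to 9 lower without single libraries.

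Directions turned for the following members and ratio, none of them called as deposited. Slc38a9 was at 0.11 with TMM scaling, 0.0925 with quantile normalization, 0.0807 with the protein-coding sum, 0.0872 with TMM scaling without library 5 and -0.17 to 0.13 without single libraries. Slc38a7 was at 0.20 and Slc3a2 at 0.0337 with TMM scaling without library 5. Without single libraries the log2 changes were -0.31 to 0.38 for Slc1a5, -0.0579 to 0.52 for Slc36a1, -0.23 to 0.27 for Slc38a10, -0.82 to 0.0387 for Slc38a2, -0.0705 to 0.60 for Slc6a20a, -0.31 to 0.33 for Slc7a7 and -0.0765 to 0.86 for Slc7a8. The Slc7a11 to Slc3a2 ratio difference was -0.22 with a pseudocount of 0.1 and -0.0354 to 0.69 without single libraries. The cause was not tested. None of the 9 ratios passed after adjustment under any alternative run. With so few libraries the exact permutation test allows a pass only if most ratios reach its smallest p together, so nothing is read from this. No paired analysis was possible because the groups share no replicate number (1 to 4 and 5 to 8). With FPKM alone and 4 libraries a group, values resting on a few fragments, as in normoxia library 8, are limited by depth.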
